A study of Mus musculus with 4 samples.

Results

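The 7 mouse genes of the cyclin-dependent kinase (CDK) inhibitors, Cdkn2a, Cdkn2b, Cdkn2c, Cdkn2d, Cdkn1a, Cdkn1b and Cdkn1c, were compared between a stromal line that supports human blood progenitors and a line that does not, together with Mtap, which lies next to Cdkn2a on chromosome 4. The members were taken as every probe set that the annotation of the Affymetrix whole-genome mouse array maps to 1 of these genes alone, which gave 13 probe sets for 8 genes out of 45037 probe sets and 18193 genes tested. OP9M2, a clonal mesenchymal stem cell line derived by low-density plating of OP9 stroma, was the supportive line, and BFC012, a fibroblast line of mouse fetal liver, was the non-supportive line. Each line was represented by 2 arrays, labelled as biological replicates. Both lines had received 2000 rad and were seeded 48 hours before RNA extraction (25000 cells/cm2), so neither has an unirradiated counterpart here. OP9M2 was grown with 20% serum and BFC012 with 10%, and serum and line cannot be told apart. OP9M2 is a single clone, and the values belong to these cultures of 1 line each. The comparison addressed the identity of OP9M2 and how it supports blood progenitors.

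CDK inhibitors brake the cell cycle by binding the kinases that drive it. The Ink4 proteins, p16Ink4a (Cdkn2a), p15 (Cdkn2b), p18 (Cdkn2c) and Ink4d (Cdkn2d), bind CDK4 and CDK6 and keep the retinoblastoma protein in its active form, while the Cip/Kip proteins p21 (Cdkn1a), p27 (Cdkn1b) and p57 (Cdkn1c) bind a wider range of cyclin and CDK complexes. Cdkn2a encodes a further protein, p19Arf, read in another frame from its own first exon, which holds the ubiquitin ligase Mdm2 away from p53. Cdkn2a and Cdkn2b are held silent in young cells by Polycomb proteins and rise with culture and oncogenic stress. Cdkn1a is a classical p53 target after irradiation, and Mtap encodes the phosphorylase that recovers adenine and methionine from methylthioadenosine.

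The bases before the starts of these genes are shown because the genes of the Cdkn2a locus differed between the lines in opposite directions and Cdkn1a is the p53 target of the family. The RefSeq promoter table (GRCm38.p6) held 10 windows for 7 of the 8 genes. Of each window the 250 bases before the start are used, 5′ to 3′ on the strand of the gene. In the first 4 sequences capitals mark every CG dinucleotide, the site of DNA methylation. In the last they mark ACATGT, which holds the CATG core of p53 half-sites and is its own reverse complement.
Cdkn2a, upstream start (first exon of p19Arf), chr4:89294620-89294869, minus strand: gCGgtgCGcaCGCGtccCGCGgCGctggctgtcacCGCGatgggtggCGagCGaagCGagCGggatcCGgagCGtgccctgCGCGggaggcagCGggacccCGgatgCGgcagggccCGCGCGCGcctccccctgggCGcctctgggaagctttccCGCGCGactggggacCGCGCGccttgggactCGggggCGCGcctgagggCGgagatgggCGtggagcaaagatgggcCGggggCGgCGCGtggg
Cdkn2a, downstream start (first exon of p16Ink4a), chr4:89282193-89282442, minus strand: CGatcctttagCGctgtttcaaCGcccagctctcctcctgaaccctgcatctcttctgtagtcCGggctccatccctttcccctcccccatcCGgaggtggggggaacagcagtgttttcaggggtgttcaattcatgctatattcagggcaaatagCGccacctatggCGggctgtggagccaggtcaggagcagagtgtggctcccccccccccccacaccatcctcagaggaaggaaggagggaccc
Cdkn2b, chr4:89311033-89311282, minus strand: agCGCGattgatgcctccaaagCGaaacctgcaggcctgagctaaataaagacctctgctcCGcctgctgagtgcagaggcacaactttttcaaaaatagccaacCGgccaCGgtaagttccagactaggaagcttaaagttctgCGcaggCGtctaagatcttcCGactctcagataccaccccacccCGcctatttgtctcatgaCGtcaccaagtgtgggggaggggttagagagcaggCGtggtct
Mtap, chr4:89137120-89137369, plus strand: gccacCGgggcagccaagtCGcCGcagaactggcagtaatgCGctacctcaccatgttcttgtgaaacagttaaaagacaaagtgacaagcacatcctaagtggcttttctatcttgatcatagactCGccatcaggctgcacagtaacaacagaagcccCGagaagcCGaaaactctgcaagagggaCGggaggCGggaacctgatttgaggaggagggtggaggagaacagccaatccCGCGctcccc
Cdkn1a, upstream start, chr17:29090729-29090978, plus strand: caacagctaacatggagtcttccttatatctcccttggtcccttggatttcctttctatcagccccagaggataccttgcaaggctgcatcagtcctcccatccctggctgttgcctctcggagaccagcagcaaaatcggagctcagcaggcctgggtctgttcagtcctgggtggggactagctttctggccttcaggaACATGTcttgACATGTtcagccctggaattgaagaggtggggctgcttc
The starts of Cdkn2a lie 12427 bases apart. The window before the upstream one held 40 CG, a number that 1.31% of 32851 windows of this length reach, against a median of 6. The window of the downstream start held 7, that of Cdkn2b 12 and that of Mtap 11, which 46.3%, 33.5% and 35.6% of windows reach. The window of the upstream Cdkn1a start held ACATGT at 49 and again at 39 bases before the start with 4 bases between them, and 0.247% of all windows held at least 2 matches. The window of the other Cdkn1a start, which is not printed, held no match and 19 CG. Among the other windows not printed, those of Cdkn2c held 29 and 6 CG, that of Cdkn2d 16 and that of Cdkn1b 28. A count of 29 is reached by 6.78% of windows and 28 by 7.61%. These counts and matches describe the letters of the reference, and neither methylation nor p53 binding was measured.

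Values are on the log2 scale, read as the natural logarithm of the deposited intensity, and each difference is OP9M2 minus BFC012 ± SE. A call required a limma adjusted p (Benjamini-Hochberg) below 0.05 and a difference of 1 log2 unit or more. The background level of 6.09 log2 units is the 95th percentile of 81 probe sets of odorant, vomeronasal and trace amine receptor genes. The OP9M2 arrays stood further apart (by 1 log2 unit or more at 2842 probe sets) than the BFC012 arrays (at 291). None of the 24 poly-A spike-in probe sets was above background on OP9M2 replicate 2, against 12 to 18 on the other arrays. Adipocyte markers averaged 13.0 log2 units on OP9M2 replicate 1, 10.1 on replicate 2, and 5.69 and 5.43 on the BFC012 arrays. Of the 5 measured, 3 were called higher in OP9M2 (Pparg, Fabp4 and Lpl) and 2 were not called (Adipoq and Cebpa). Adipoq read 12.84 and 5.41 on the OP9M2 arrays, and Pparg 11.67 and 11.11. The stromal genes Col1a1 and Vim were high in both lines, while Thy1 and Lum were not above background on any array. Col1a2 read 14.25 and 14.14 in OP9M2 and 6.18 and 6.07 in BFC012. It was called higher in OP9M2, and the other 8 of the 9 stromal markers were not called, among them Pdgfra (3.37) and Pdgfrb (2.18). BFC012 carried mesothelial genes, and 5 of 6 of these markers were called lower in OP9M2. The mean level of the 6 was 4.84 and 5.24 log2 units in OP9M2 and 10.2 and 10.5 in BFC012. The remaining marker, Msln, was not called and read 6.56 and 10.0 in OP9M2 and 10.19 and 10.48 in BFC012. In a bulk sample fewer cells of a type and less RNA per cell cannot be told apart, and the part of the mesothelial and adipocyte genes in the results below was not tested. Levels and calls of a gene here are those of its brightest probe set. Defining markers of hepatocytes (Alb, Afp, Apoa1), leukocytes (Ptprc, Adgre1), endothelium (Pecam1, Cdh5) and red cells (Hba-a1) were not above background on any array. Other genes of these lists were above it on all 4 arrays, namely Ttr and Hnf4a (hepatocyte), Csf1r and Cd14 (macrophage), Kdr (endothelium), and Epor and Tfrc (red cell list), and Cd68 was on 3. Of these Cd14 alone was called, at 7.12 and 7.47 log2 units in OP9M2 and 8.94 and 9.57 in BFC012.

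Cdkn2a and Cdkn2b, which stand side by side on chromosome 4, were at background in OP9M2 and high in BFC012. The probe set of Cdkn2a (1450140_a_at) read 4.07 and 4.34 log2 units on OP9M2 replicates 1 and 2, and 12.74 and 12.88 on the BFC012 arrays. Both OP9M2 values lay below the background level, and the lines were separated by many times the spread within either pair. The difference was -8.61 ± 0.16 (95% interval -9.04 to -8.18, adjusted p = 0.00105), which is at least 105-fold lower when OP9M2 is set at the background level. Cdkn2b (1449152_at) read 4.87 and 5.32 in OP9M2 and 10.06 and 10.14 in BFC012. It too was below background on both OP9M2 arrays and did not overlap between the lines. Its difference was -5.01 ± 0.20 (95% interval -5.54 to -4.48, adjusted p = 0.00185), at least 16.1-fold lower. Cdkn2a has 1 probe set here, so its value is that of the gene and does not tell the p16Ink4a transcript from that of p19Arf.

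Of the 8 genes, 2 were thus called lower in OP9M2, 1 (Mtap) higher and 5 not called, where 5.91% of all genes were called, 3.56% lower and 2.36% higher. Of the 13 probe sets 2 were called lower, 3 higher and 8 not called, against 4.46% of all probe sets called, 2.66% lower and 1.8% higher. Cdkn2a and Cdkn2b were called lower, and Mtap higher, without OP9M2 replicate 1 and without OP9M2 replicate 2. Without BFC012 replicate 1 or replicate 2, limma called 0 probe sets of the whole table (4568 and 4517 at an unadjusted p under 0.05), and the adjusted p was 0.0826 and 0.0903 for Cdkn2a, 0.0925 and 0.0987 for Cdkn2b, and 0.277 and 0.290 for Mtap. The same loss holds for every call given below.

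**Figure D1:**
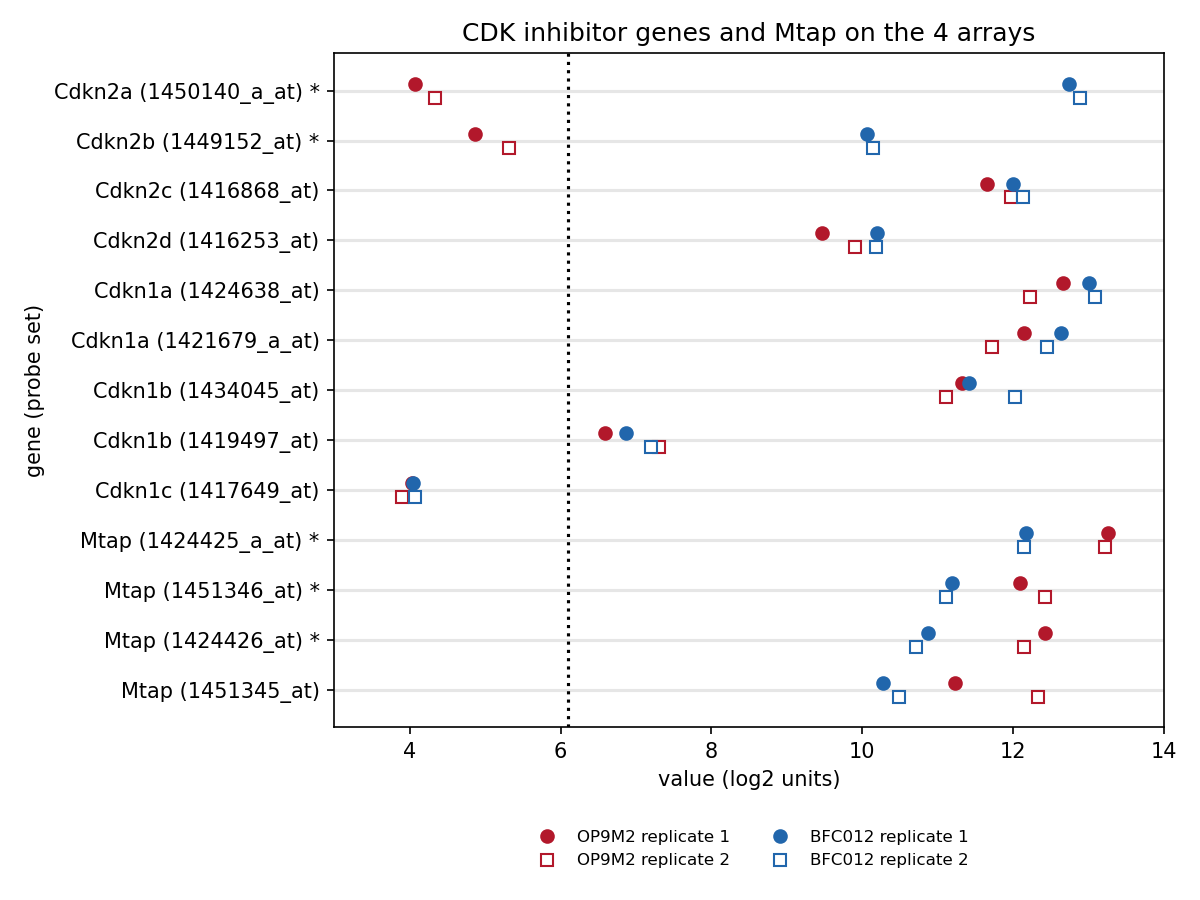
Value of each of the 13 probe sets (rows) in log2 units (horizontal axis) by array, with OP9M2 in red and BFC012 in blue, filled circles for replicate 1 and open squares for replicate 2; dots trace the background level, and called probe sets carry an asterisk. Cdkn2a and Cdkn2b lie left of the background line in OP9M2 alone, Cdkn1c lies left of it on all 4 arrays, and the OP9M2 values of each Mtap probe set lie right of those of BFC012.

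The other Ink4 genes, which lie away from that locus, were well above background in both lines. Cdkn2c, whose product p18 acts on CDK6 above all, read 11.65 and 11.98 log2 units in OP9M2 and 11.99 and 12.13 in BFC012. OP9M2 replicate 2 and BFC012 replicate 1 were nearly level. The difference was -0.25 ± 0.17 (95% interval -0.71 to 0.22, adjusted p = 0.543). Cdkn2d read 9.46 and 9.90 in OP9M2 and 10.19 and 10.18 in BFC012, with no overlap. Its difference was -0.50 ± 0.20 (95% interval -1.02 to 0.015, adjusted p = 0.271) and was not called. In both genes OP9M2 replicate 1 was the lowest array, as it was for 19 of 20 proliferation genes described below, and the part of this array in the differences was not tested. Without it the difference was -0.084 for Cdkn2c and -0.28 for Cdkn2d, and without OP9M2 replicate 2 it was -0.41 and -0.73.

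Among the Cip/Kip genes the p53 target Cdkn1a was the one with the largest difference, and it was not called. Its probe set 1424638_at read 12.66 and 12.22 log2 units in OP9M2 and 13.01 and 13.08 in BFC012. The probe set 1421679_a_at read 12.15 and 11.71 in OP9M2 and 12.63 and 12.45 in BFC012. On both probe sets the BFC012 arrays were the higher pair, and the lowest array was OP9M2 replicate 2. The differences were -0.60 ± 0.19 (95% interval -1.12 to -0.084, adjusted p = 0.202) and -0.61 ± 0.20 (adjusted p = 0.211), about 1.52-fold. A change of 2-fold towards BFC012 lies inside both intervals, and a change towards OP9M2 lies outside them, before any adjustment for the number of probe sets tested.

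Cdkn1b encodes p27, which accumulates in resting cells. Its brighter probe set, 1434045_at, read 11.32 and 11.11 log2 units in OP9M2 and 11.41 and 12.02 in BFC012, so that the BFC012 arrays differed from each other by 0.61. The difference was -0.50 ± 0.25 (95% interval -1.16 to 0.17, adjusted p = 0.389). The dimmer probe set, 1419497_at, overlapped between the lines, at 6.59 and 7.30 in OP9M2 and 6.87 and 7.20 in BFC012 (-0.092 ± 0.29, adjusted p = 0.92). Cdkn1c, the imprinted inhibitor p57, was not above background on any array. It read 4.03 and 3.89 in OP9M2 and 4.05 and 4.07 in BFC012, and its difference of -0.097 ± 0.14 therefore compares values at background. By the probe set that stands for each gene, all 7 inhibitors were lower on both OP9M2 arrays than on both BFC012 arrays, where 24.8% of all genes were, and 5 of the 7 did not pass the test. Cdkn1c is counted among them although its values lie at background.

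**Figure D2:**
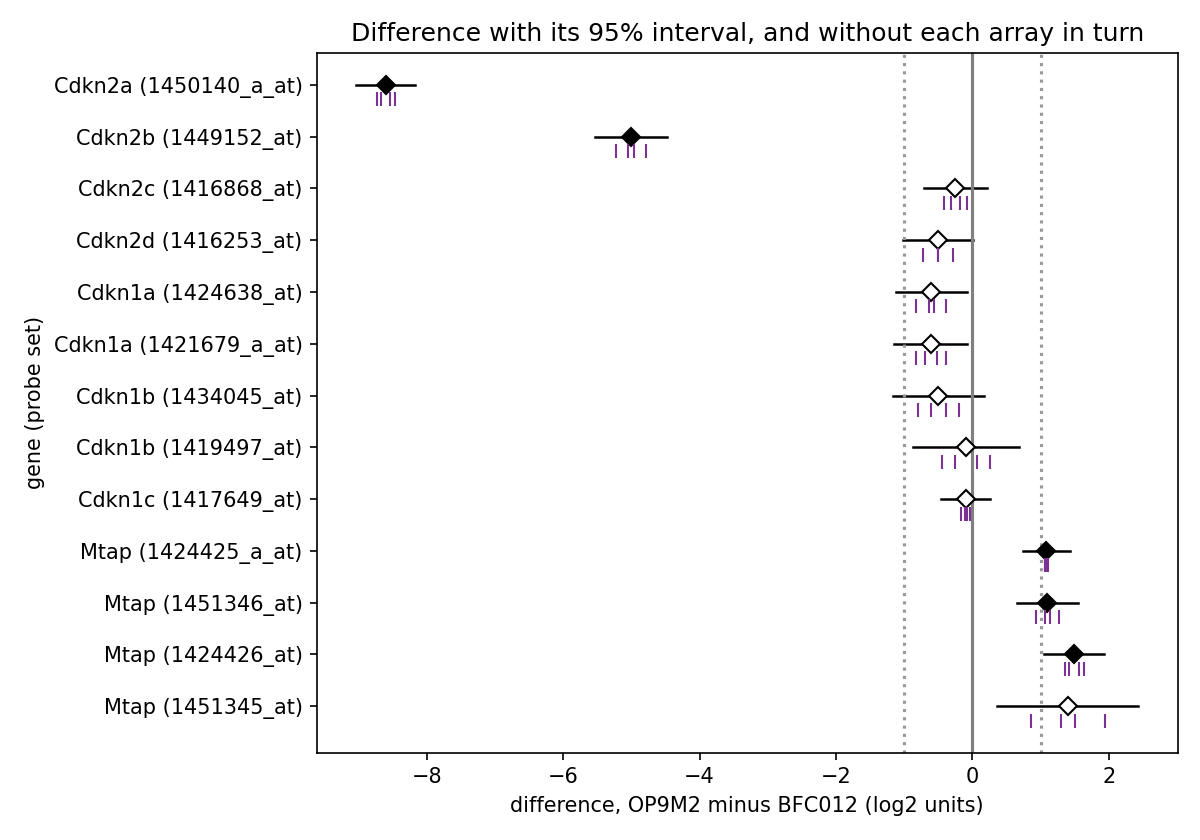
Difference OP9M2 minus BFC012 of each probe set (horizontal axis, log2 units; diamonds, filled where called) with its 95% interval from limma (lines) and the difference without each array in turn (purple ticks); dotted lines mark 1 log2 unit on either side of 0. Cdkn2a at -8.61 and Cdkn2b at -5.01 stand apart from the other inhibitors, which lie between -0.61 and -0.092, and the Mtap probe sets lie between 1.09 and 1.49.

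Mtap was higher in OP9M2, with 3 of its 4 probe sets called. Its brightest, 1424425_a_at, read 13.25 and 13.22 log2 units in OP9M2 and 12.17 and 12.14 in BFC012. The OP9M2 arrays were 0.032 and the BFC012 arrays 0.030 apart, far less than the difference of 1.09 ± 0.13 (2.12-fold, adjusted p = 0.0232). The probe set 1424426_at read 12.43 and 12.15 against 10.87 and 10.71 (1.49 ± 0.17, 2.82-fold, adjusted p = 0.0197), and 1451346_at read 12.08 and 12.41 against 11.18 and 11.11 (1.10 ± 0.17, adjusted p = 0.0447). The remaining one, 1451345_at, read 11.23 and 12.32 in OP9M2 and 10.28 and 10.48 in BFC012. There the OP9M2 arrays stood 1.09 apart, and the difference of 1.40 ± 0.39 was not called (adjusted p = 0.155). Without OP9M2 replicate 1 it was called (1.94, adjusted p = 0.00997), and without OP9M2 replicate 2 the call of 1451346_at was lost (0.94). All 4 probe sets, which read 1 gene on the same arrays, were free of overlap. By the brightest probe set of each gene, 28.4% of all genes were higher on both OP9M2 arrays without overlap.

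Along chromosome 4 the low values of OP9M2 were found in Cdkn2a and Cdkn2b and, past genes that were silent or higher, in Tusc1. In the gene order of GRCm38.p6 the 12 nearest measured genes on each side of Cdkn2a were taken, and 22 of these are neither Cdkn2b nor Mtap. Of the 22, 1 was called higher, 1 lower and 20 were not called, and 14 were not above background on any array. On the side of Mtap the next measured genes were the interferons Ifna1 (6.31 and 6.43 log2 units in OP9M2, 5.96 and 6.07 in BFC012) and Ifna4, which was below background throughout. The 9 interferon genes of this stretch encode antiviral cytokines that resting stroma seldom makes, and 7 were not above background on any array. Ifnz was above it on all 4, at 7.82 and 7.68 in OP9M2 and 7.39 and 7.08 in BFC012. The 9 genes differed by -0.086 to 0.51, with no adjusted p under 0.209. The nearest gene beyond Mtap that was bright in both lines, named after its values were seen, was the ubiquitin ligase adaptor Klhl9. It read 11.43 and 11.58 in OP9M2 and 11.50 and 11.58 in BFC012, a difference of -0.040 ± 0.14.

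On the side of Cdkn2b the next measured genes, Dmrta1 and Zfp352, were below background on every array (0.048 and -0.17). Beyond them lay Elavl2, which encodes an RNA-binding protein known from neurons. It read 8.38 and 8.46 log2 units in OP9M2 and 6.63 and 6.50 in BFC012 (1.86 ± 0.14, 3.62-fold, adjusted p = 0.00723), and 2 of its 5 probe sets were called. The mean of all 5 gave 1.13. Tusc1 read 4.88 and 4.66 in OP9M2 and 9.26 and 9.35 in BFC012 (-4.54 ± 0.15, at least 9.30-fold lower, adjusted p = 0.00148). The genes Izumo3 (0.15) and Caap1 (-0.68) on either side of Tusc1 were not called. The arrays measured RNA, and the copy number of these genes was not measured.

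**Figure D3:**
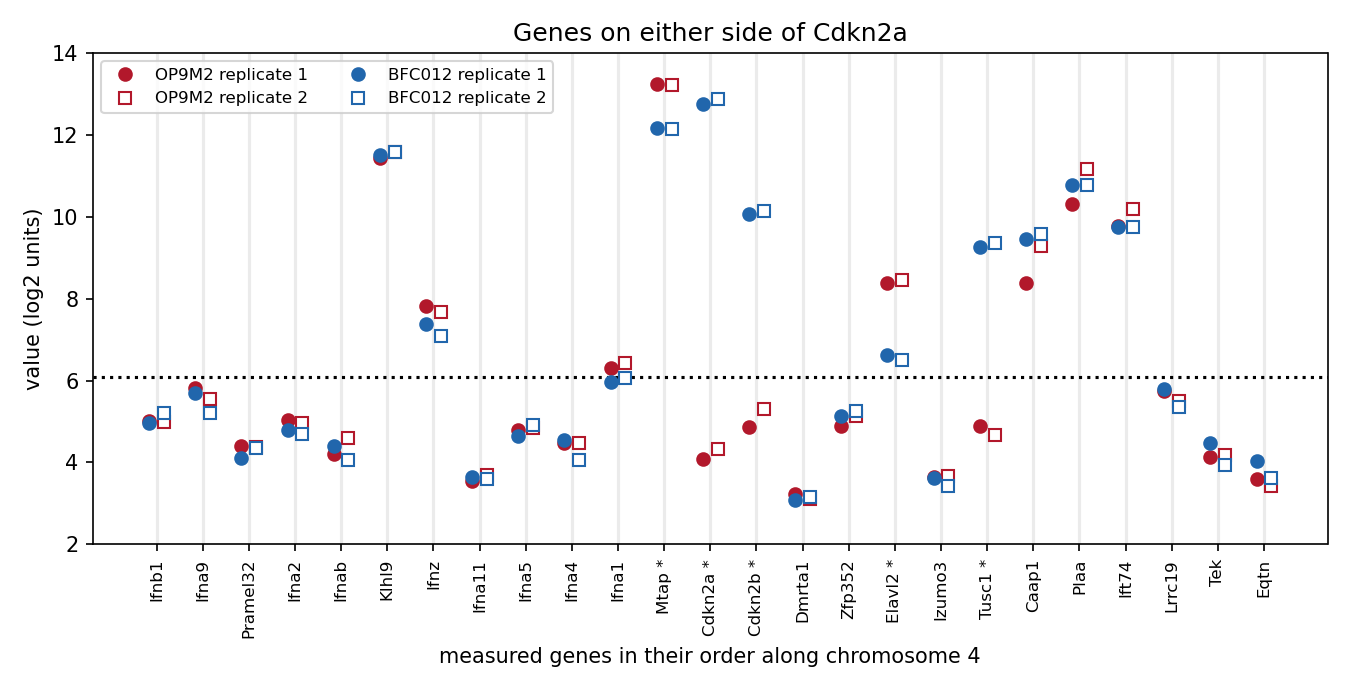
Value (vertical axis, log2 units) on each of the 4 arrays for Cdkn2a and the 12 nearest measured genes on each side in their order along chromosome 4 (horizontal axis, evenly spaced by rank, not by distance); colours, symbols, dots and asterisks are as in the plot of the 13 probe sets. Cdkn2a, Cdkn2b and Tusc1 lie below the dotted line in OP9M2 and above it in BFC012, while Mtap and Elavl2 are above it in both lines and higher in OP9M2.

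The genes most like Cdkn2a over the 4 arrays were found by the root mean square distance between values centred on each gene's mean, among 18192 other genes. The nearest was Ndnf, a secreted neuron-derived factor (distance 0.198 log2 units; a value of 3.996 and 4.15 in OP9M2, 12.92 and 13.19 in BFC012). It was followed by the membrane glycoprotein Gpm6a (0.222), which is among the mesothelial markers above. Next came the surface antigen Cd24a (0.257), the Wnt modulator Sfrp2 (0.269) and the teneurin Tenm3 (0.351). Cdkn2b stood at place 63. With 2 arrays per line, likeness here rests on the size of the step between the lines. Both OP9M2 values of Cdkn2a, Cdkn2b and the genes named here lay below the background level. The distances and places therefore depend partly on values below that level.

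The kinases and cyclins on which the inhibitors act were mostly not called. As a measure for the list counts that follow, 23.3% of all genes had an unadjusted p under 0.05. Calls over all genes rose to 3.78% higher and 5.41% lower without OP9M2 replicate 1, and to 6.47% higher and 6.26% lower without OP9M2 replicate 2. Of 5 D-type cyclin and CDK4 and CDK6 genes, which the Ink4 proteins hold back, 1 was lower in OP9M2 and 4 were not called (median -0.74 log2 units, against 0.032 over all genes). The lower one was Ccnd2, a cyclin that mitogens induce, at 12.81 and 12.64 in OP9M2 and 13.97 and 14.10 in BFC012. Its difference was -1.31 ± 0.15 (2.47-fold, adjusted p = 0.0200), and 6 of its 7 probe sets were called. Cdk4 read 13.46 and 12.27 in OP9M2 and 12.26 and 12.33 in BFC012, so OP9M2 replicate 1 alone stood out (0.57 ± 0.42, adjusted p = 0.560). Cdk6 differed by -1.09 ± 0.40 (adjusted p = 0.248) and Ccnd1 by -0.18 ± 0.18. Without OP9M2 replicate 2, where replicate 1 alone stands for OP9M2, 2 of the 5 genes were called lower and 1 higher.

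Of 10 cyclin and CDK genes of S phase and mitosis, 0 were called in limma (1 at an unadjusted p under 0.05), with a median of -0.41 log2 units. The largest difference was in Cdc25a, a phosphatase that releases CDK2 from inhibition (-0.80 ± 0.36, adjusted p = 0.341). Of 13 pocket protein and E2F genes, through which the brake acts on transcription, 0 were called by their brightest probe set. Of these, 6 had an unadjusted p under 0.05 in limma, and the median was 0.065. Tfdp1, a partner of E2F proteins, differed most (-0.80 ± 0.24, adjusted p = 0.174). Among dimmer probe sets, 1 of the 2 of E2f6 and 1 of the 4 of Tfdp2 were called. Of 20 proliferation genes 0 were called (3 at an unadjusted p under 0.05; median -0.57), with the helicase subunit Mcm7 at -0.92 ± 0.41 (adjusted p = 0.333). OP9M2 replicate 1 was the lowest array for 19 of these 20 genes. Their mean level was 10.2 on that array, 11.2 on OP9M2 replicate 2, and 11.4 and 11.0 on the BFC012 arrays. Without OP9M2 replicate 2 limma called 7 of the 20, 4 of the 10 and 2 of the 13 lower, and without OP9M2 replicate 1 it called 0 in all 3 lists. The medians without replicate 1 were -0.083, 0.032 and 0.35.

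**Figure D4:**
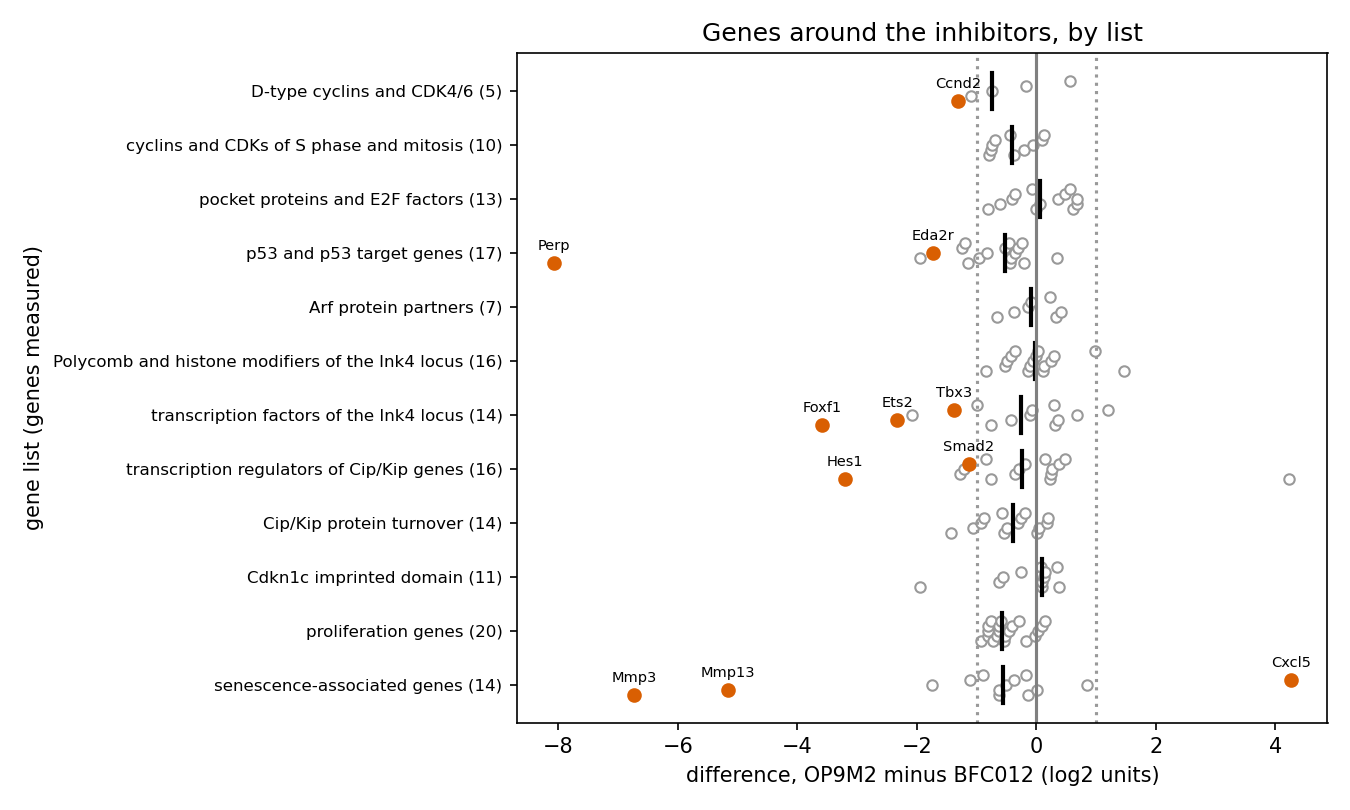
Difference OP9M2 minus BFC012 (horizontal axis, log2 units) of each measured gene in 12 lists around the inhibitors (rows, number measured in brackets), with called genes filled and named, other genes open, dotted lines at 1 log2 unit on either side of 0, and the median of each list as a black bar; points are spread vertically within a row for legibility. Called genes lie below 0, except Cxcl5 at 4.26.

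In the p53 arm, limma called 2 of 17 measured genes lower in OP9M2 and left 15 uncalled, with a median of -0.53 log2 units. Of the 17, 8 had an unadjusted p under 0.05. Differences lay below 0 in 16 of the 17, and also in 17 of the 20 proliferation genes. The same held for 8 of the 10 genes of S phase and mitosis and 6 of the 13 pocket protein and E2F genes. Perp, a p53 target that acts in cell death and in desmosomes, read 4.02 and 3.64 in OP9M2 and 11.60 and 12.20 in BFC012 (-8.07 ± 0.27, at least 56.0-fold lower). Eda2r, a receptor of the tumour necrosis factor family and a p53 target, read 7.82 and 7.93 against 9.38 and 9.83 (-1.73 ± 0.20, 3.32-fold, adjusted p = 0.0223). Mdm2, which p53 induces and Arf binds, was at 10.83 and 11.36 against 12.21 and 12.37 (-1.20 ± 0.22, adjusted p = 0.0677) and was not called. Without OP9M2 replicate 1, 5 of the 17 genes were called lower. Of 7 measured partners of the Arf protein 0 were called (2 at an unadjusted p under 0.05; median -0.085). The largest difference among them was in Topors (-0.65 ± 0.25, adjusted p = 0.265), and the nucleolar protein Npm1, to which Arf binds, differed by -0.14 ± 0.19.

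Of 16 measured Polycomb and histone modifier genes known to act at the Ink4 locus, 0 were called (5 at an unadjusted p under 0.05; median -0.029 log2 units). Ezh1, a histone H3 lysine methyltransferase, differed most (1.47 ± 0.30, adjusted p = 0.0793), at 9.25 and 8.48 in OP9M2 and 7.28 and 7.50 in BFC012. Its relative Ezh2 differed by -0.85 ± 0.24 (adjusted p = 0.152) and Bmi1, the classical repressor of Cdkn2a, by 0.24 ± 0.16 (adjusted p = 0.502). Without OP9M2 replicate 1, 1 of the 16 was called higher, and without OP9M2 replicate 2, 2 were called higher and 1 lower.

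Of 14 transcription factors listed for the Ink4 locus, 3 were lower and 11 were not called (median -0.26 log2 units). The list was chosen with earlier results of these data known, and whether its genes act on the locus in these lines was not tested. Foxf1, a forkhead factor of visceral mesoderm, read 6.65 and 6.36 in OP9M2 and 9.94 and 10.24 in BFC012 (-3.58 ± 0.19, 11.98-fold, adjusted p = 0.00331). Ets2, an Ets factor that can activate p16Ink4a, read 8.34 and 8.30 against 10.60 and 10.69 (-2.33 ± 0.13, 5.01-fold, adjusted p = 0.00388). The dimmer probe set of Foxf1 was also called, with a smaller difference (-1.13, 2.18-fold), and the mean of both gave -2.35. Of the 3 Ets2 probe sets 2 were called, and the mean of all 3 gave -1.49. Tbx3, a repressor of the locus, lay near the background level, at 4.91 and 4.85 against 6.16 and 6.36 (-1.38 ± 0.15, at least 1.12-fold lower), and 2 of its 5 probe sets were called, the other of them with no array of either line above background. With the mean of all its probe sets Tbx3 differed by -0.54 and was not called. Without OP9M2 replicate 1 the list had 5 genes lower and 2 higher, and without OP9M2 replicate 2 it had 5 lower.

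Of 16 regulators of Cip/Kip transcription, 2 were lower and 14 were not called (median -0.24 log2 units). The Notch target Hes1, a repressor of Cdkn1b, read 6.54 and 6.41 in OP9M2 and 9.53 and 9.84 in BFC012 (-3.21 ± 0.17, 9.24-fold, adjusted p = 0.00331). The TGF-beta signal carrier Smad2 read 8.77 and 8.41 against 9.71 and 9.73 (-1.13 ± 0.18, 2.19-fold, adjusted p = 0.0453). Smad2 had 1 of 2 probe sets called and was not called without OP9M2 replicate 2 (-0.95), with the mean of both probe sets (-0.95) or with a trended robust prior (adjusted p = 0.0679). The adipocyte factor Cebpa, which was not called, read 12.69 and 8.92 in OP9M2 and 6.55 and 6.59 in BFC012 (4.23 ± 1.26, adjusted p = 0.176). Without OP9M2 replicate 1 the list had 3 genes lower and 1 higher.

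Genes for the breakdown of the Cip/Kip proteins were not called in 14 of 14 cases (6 at an unadjusted p under 0.05; median -0.40 log2 units). The largest difference was in the ubiquitin-conjugating enzyme Cdc34 (-1.43 ± 0.36, adjusted p = 0.128). Skp2, which marks p27 for breakdown, read 8.02 and 9.82 in OP9M2 and 9.97 and 9.71 in BFC012, so replicate 1 of OP9M2 stood apart (-0.92 ± 0.62, adjusted p = 0.523). Without OP9M2 replicate 2, 3 of the 14 were called lower. Of 11 measured genes listed for the wider imprinted region around Cdkn1c, 0 were called (3 at an unadjusted p under 0.05, median 0.092). The growth factor gene Igf2 differed most in that list (-1.94 ± 0.40, adjusted p = 0.0838), at 7.46 and 6.80 in OP9M2 and 8.61 and 9.54 in BFC012.

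Of 14 measured genes associated with senescence, a lasting arrest in which Cdkn2a is a usual marker, 1 was higher, 2 were lower and 11 were not called (median -0.56 log2 units). The chemokine Cxcl5 was higher in OP9M2, at 9.70 and 9.12 against 4.83 and 5.47 (4.26 ± 0.32, at least 9.96-fold, adjusted p = 0.00726). Cxcl1 was not called by its brightest probe set, at 9.70 and 9.61 against 8.95 and 8.67 (0.85 ± 0.16, adjusted p = 0.0691). Of its 3 probe sets 2 were called. The stromelysin Mmp3 was lower, at 4.57 and 4.69 against 10.60 and 12.11 (-6.73 ± 0.52, at least 38.4-fold, adjusted p = 0.00799). The collagenase Mmp13 was lower, at 4.44 and 3.14 against 8.52 and 9.37 (-5.16 ± 0.53, at least 7.22-fold, adjusted p = 0.0165). The lamin Lmnb1, which falls in senescent cells, was not called (-0.89 ± 0.24, adjusted p = 0.14), and Il6 read 8.63 and 4.67 in OP9M2 and 8.31 and 8.49 in BFC012. Without OP9M2 replicate 1 and without OP9M2 replicate 2 the list had 3 and 5 genes lower.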

How the data were processed

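RNA of 2 samples each of OP9M2 and BFC012, labelled as biological replicates, was amplified by the study (Ambion) and measured on Affymetrix whole-genome mouse arrays. The deposited intensities, 1 per probe set and array, were made by the authors with RMA and the affy package (Bioconductor 2.7; settings not given in the sources used here). From 6.31% to 6.57% of the values of an array exceeded 65535, the largest scanner value, and natural logarithms of the deposited values ran from 2.06 to 14.9, so the natural logarithm was read as the RMA log2 value. The base is not stated. Read as log2 of the deposited value, every difference is 1.44 times as large. The 64 array controls were left out, and the 45037 other probe sets were fitted in R 4.3.3 by lmFit and eBayes of limma 3.58.1 (2 against 2 arrays, no covariate, 2-sided, Benjamini-Hochberg over all), with 2 residual and 2.50 prior degrees of freedom. The fit was tested on simulated data drawn with equal spread in both lines, which differs from these arrays, where the OP9M2 pair stood further apart. Nothing states that the replicates came from separate cultures beyond their label, and p-values measure the spread between these arrays, whose number limits the precision.

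A gene is represented by its brightest probe set naming it alone; of 34945 such probe sets 34741 matched a current gene identifier. Where neither array of a line exceeded background, the fold is a lower bound, the brighter mean over that level. Members and gene lists were chosen with earlier results of these data known, and list counts are descriptions with no set test. Named were all members, the called genes of each list (up to 4, or the gene with the largest difference), the called and the 2 nearest neighbours on each side, and the 5 genes nearest to Cdkn2a; other genes were named after their values were seen. Alternatives were another scale, normalization, centring, background filter, prior and probe set rule, a replicate block and leaving out each array.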

Additional observations from a re-analysis of the deposited data

How the results depend on the processing

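Cdkn2a and Cdkn2b kept their call and direction with log2 of the deposited value, a further quantile normalization, median centring, a filter on dim probe sets, a trended robust prior, the replicate block and without either OP9M2 array, and lost the call without either BFC012 array, which leaves the OP9M2 pair to set the spread. Leaving out each array in turn gave -8.74 to -8.47 for Cdkn2a, -5.23 to -4.78 for Cdkn2b and 1.07 to 1.10 for Mtap. Deviations of same-numbered arrays had r = -0.103 over 45037 probe sets. With 1 deviation per line this does not decide whether the replicate numbers pair the arrays, and the labels state no pairing. With the replicate block Mtap stayed at 1.09 with adjusted p = 0.102 and lost its call. Of the 13 called list genes and neighbours 7 lost theirs: Elavl2 (adjusted p = 0.0534), Cxcl5 (0.0556), Eda2r (0.0678), Tbx3 (0.0851), Mmp13 (0.0866), Ccnd2 (0.0954) and Smad2 (0.131). The block called 245 probe sets higher and 462 lower, against 810 and 1198. With the crossed pairs as a block, an alternative added after seeing the data, 585 were higher and 792 lower. Leaving out each array gave 0 to 2181 higher and 0 to 2256 lower. The dimmer Cdkn1b probe set turned to 0.26 without OP9M2 replicate 1 and to 0.073 without BFC012 replicate 2 (range without each array -0.45 to 0.26), and was called in neither. Causes were not tested. The list counts without each array were also added after seeing the data. Of the 192 comparisons of the other probe sets and genes with their alternatives, 145 kept side and direction, 44 lost the call, 1 gained it and 2, those of the dimmer Cdkn1b probe set, turned. For probe sets below background on all arrays, such as that of Cdkn1c, no fold can be given.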
